A study of Mus musculus with 8 samples.

Results

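Interferon-stimulated genes are the genes that a cell switches on when interferon binds its receptors. A list of 39 such genes of the mouse was examined, chosen by gene symbol with earlier results of these data known. Of these, 37 were measured, among 18193 genes in all. Each gene was read from the probe set, the group of short array probes for a transcript, that had the highest mean over the 8 arrays. Isg15, a ubiquitin-like modifier, and Ifi44 were not analysed here.

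The RNA of cultured mouse thymocytes was hybridised to 8 Affymetrix arrays, 2 in each of 4 groups. The groups were IkL/L thymocytes treated with MRK-003, labelled as 5 mM, an inhibitor of gamma-secretase (GSI), IkL/L thymocytes treated with its vehicle DMSO, wild-type (WT) thymocytes treated with GSI, and WT thymocytes treated with DMSO. IkL/L is the genotype label of the mutant, in which Ikzf1, the gene for the transcription factor Ikaros, was lower. All cells were lineage-negative thymocytes cultured on OP9 DL1, stromal cells that present a Delta-like Notch ligand, exposed for 16 h, and then sorted as lineage-negative, CD44-negative, CD25-positive (DN3) cells, an early stage of T cell development. The labels give no animal age. They do not say whether both arrays of a group stem from different mice or cultures. The p-values therefore describe the variation between these arrays, part of which may be technical.

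Type I interferons act through the receptor chains Ifnar1 and Ifnar2 and the kinases Jak1 and Tyk2, which activate a complex that contains Stat2 and Irf9. That complex binds the interferon-stimulated response element (ISRE) in the promoters of its target genes. Interferon gamma acts on its target genes through the GAS element. The induced genes sense foreign nucleic acid, block viral replication and present antigen, and thymocytes express part of them without infection. Gamma-secretase cuts Notch receptors within the membrane, so that their inner part can reach the nucleus, and GSI blocks that cut.

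Averaged over both genotypes, 13 of the 37 genes rose with GSI and none fell at an adjusted p below 0.05, among them Trim30a (3.12-fold), Gbp2 (3.74-fold) and Rsad2 (4.03-fold). In the same comparison 10.8% of all genes were called higher and 12.5% lower. The Rsad2 call was lost without some single arrays. The other 24 members had differences from -0.08 to 2.43 in log2, many of them beside large gaps between replicates. No member was called between IkL/L and WT cells. In a fit with a term for the replicate number, 33 members were called higher with GSI (13.4% of all genes). Averaged over treatments, that fit called 9 members lower in IkL/L than in WT cells (2.83% of all genes) and 1 higher (2.78%). The labels do not say whether equal replicate numbers pair the samples.

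Promoter windows from RefSeq (build GRCm38.p6), which run from 250 bases before to 50 bases after a start site, were given for 28 of the 37 genes. An ISRE-type match was searched on both strands as GAAA, 2 bases of any kind and GAAA again. It lay in the window of 15 of these genes (53.6%), against 3.99% of all 27025 genes with a window. A GAS-type match, searched as TTCNNNGAA on both strands, lay in 7 (25.0%), against 9.55% of all such genes. Matches of both motifs were found in 3 members, with 1 pair of overlapping matches, and 9 members had neither. A match is a description of the letters and not evidence of binding. The 160 bases just before the start site are printed, with the letters of each ISRE-type match in capitals, for 6 genes. Ifit1, Ifit3 and Rsad2 had some of the largest gaps between replicates, and Trim30a, Gbp2 and Gbp3 kept their call whichever array was left out.
Ifit1 (chr19:34640729-34640888, plus strand): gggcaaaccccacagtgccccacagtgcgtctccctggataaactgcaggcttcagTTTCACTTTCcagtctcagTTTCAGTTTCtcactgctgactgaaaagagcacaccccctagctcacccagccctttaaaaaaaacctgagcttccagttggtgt
Ifit3 (chr19:34583369-34583528, plus strand): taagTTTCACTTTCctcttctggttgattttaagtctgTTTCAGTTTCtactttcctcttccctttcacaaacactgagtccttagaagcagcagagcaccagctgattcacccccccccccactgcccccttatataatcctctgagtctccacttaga
Rsad2 (chr12:26456453-26456612, minus strand): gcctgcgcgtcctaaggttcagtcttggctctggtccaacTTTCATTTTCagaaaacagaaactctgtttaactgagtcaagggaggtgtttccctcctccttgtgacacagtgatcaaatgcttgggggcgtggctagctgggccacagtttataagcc
Trim30a (chr7:104465194-104465353, minus strand): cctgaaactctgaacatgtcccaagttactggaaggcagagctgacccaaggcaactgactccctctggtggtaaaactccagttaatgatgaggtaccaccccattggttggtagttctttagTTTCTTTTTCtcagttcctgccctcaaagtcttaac
Gbp2 (chr3:142620503-142620662, plus strand): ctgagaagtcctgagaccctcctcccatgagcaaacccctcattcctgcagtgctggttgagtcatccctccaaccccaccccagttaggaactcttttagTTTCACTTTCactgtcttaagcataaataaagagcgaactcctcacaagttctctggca
Gbp3 (chr3:142559884-142560043, plus strand): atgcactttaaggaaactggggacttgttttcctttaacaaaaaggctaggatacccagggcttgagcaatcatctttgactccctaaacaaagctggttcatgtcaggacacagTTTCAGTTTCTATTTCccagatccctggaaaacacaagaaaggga
In this reading the match began 59 bases before the start site in Gbp2, 36 in Trim30a and 120 in Rsad2. Ifit1 held matches at 104 and 85 bases, Ifit3 at 156 and 122 bases, and Gbp3 a pair of overlapping matches at 45 and 39 bases. The genes printed were picked by hand and each holds a match, so they cannot show how the motif relates to replicate gaps. Dtx3l and Trim25, with the smallest mean gaps of the members, had neither motif in the window. Oasl2, Cmpk2 and Irf7, with large mean gaps, had neither motif as well.

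Values below are log2 expression levels as deposited, given as replicate 1 and then replicate 2. The median level of the 37 genes was 10.07 and 9.37 on the IkL/L GSI arrays, against 8.69 and 7.54 on the IkL/L DMSO arrays. It was 10.92 and 9.52 on the WT GSI arrays, against 9.74 and 8.16 on the WT DMSO arrays. In IkL/L cells both GSI arrays stood above both DMSO arrays, while in WT cells the GSI replicate 2 stood below the DMSO replicate 1. That reversed order of WT arrays held for 23 members, against 56.2% of all genes. Of the 37 genes, 29 had their highest value on the WT GSI replicate 1 array and 28 their lowest on the IkL/L DMSO replicate 2 array. Only Cxcl10, Mx1 and Mx2 had a mean below the median of all genes.

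**Figure D1:**
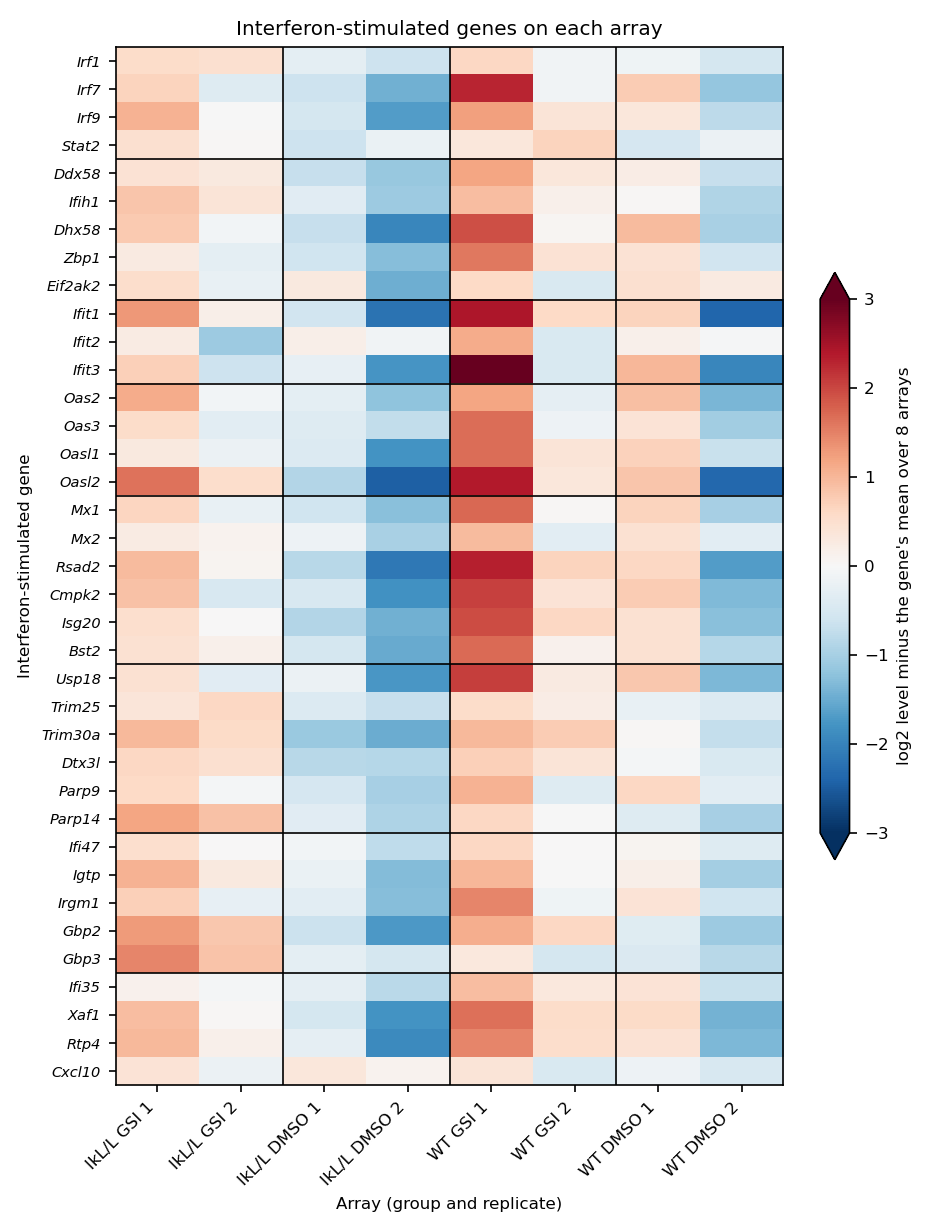
Each of the 37 measured genes (rows, grouped by role with lines between roles) on each of the 8 arrays (columns), as the log2 level minus the gene's own mean over the 8 arrays. Replicate 1 is redder than replicate 2 in nearly every gene of each group, and 29 genes peak on the WT GSI replicate 1 array.

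The gap between the replicates of a group was as large as the response for many genes. Replicate 1 lay above replicate 2 for 36 of 37 genes in every group, against 40.1% of all genes for IkL/L GSI, 61.5% for IkL/L DMSO, 62.2% for WT GSI and 63.5% for WT DMSO. The median gap was 0.65 for IkL/L GSI, 0.81 for IkL/L DMSO, 1.15 for WT GSI and 1.07 for WT DMSO, where the medians over all genes were -0.05, 0.06, 0.09 and 0.09. Gaps of over 2-fold with replicate 1 higher were seen for 8 members of IkL/L GSI (0.583% of all genes) and 14 of IkL/L DMSO (0.616%). In WT cells they were seen for 22 members under GSI (3.32%) and 21 under DMSO (1.09%). No member had a gap of that size the other way. In all 4 groups 35 members were higher in replicate 1, against 13.0% of all genes. The exceptions were Stat2, lower in replicate 1 of 3 groups, and Trim25, lower in replicate 1 of IkL/L GSI.

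Markers of the OP9 stroma moved with these gaps. The mean level of 16 stromal genes in IkL/L cells was 7.24 and 6.74 under GSI, against 7.08 and 6.19 under DMSO. In WT cells it was 7.53 and 5.84 under GSI, against 6.79 and 6.01 under DMSO. Replicate 1 was higher for 12 of the 16 in IkL/L GSI, 15 in IkL/L DMSO, all 16 in WT GSI and 13 in WT DMSO. The stromal mean was also higher under GSI in 3 of 4 same-numbered array pairs, by 0.15 and 0.55 in IkL/L and by 0.73 in WT replicate 1, with a difference of -0.17 in WT replicate 2. Of the 16 genes, 14 had an average GSI difference above 0, with a median of 0.29 and a range from -0.26 for Col3a1, a fibrillar collagen, to 0.64 for Serpinh1, a collagen chaperone. None of the 16 passed the limma test of the average GSI difference, and none had an unadjusted p below 0.05. In bulk RNA, fewer cells of a type and less RNA per cell cannot be told apart, and the part of stromal RNA in the replicate gaps and in the GSI differences was not tested.

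The 12 measured DN3 markers had means of 11.30 to 11.41 in IkL/L GSI, against 11.41 to 11.51 in IkL/L DMSO. They had means of 11.35 to 11.38 in WT GSI, against 11.58 to 11.63 in WT DMSO. These means cover genes that moved both ways. Il2ra, which encodes the sort marker CD25, fell by 2.28 ± 0.11 (adjusted p = 7.16e-05) and Ptcra, the pre-T cell receptor alpha chain, fell by 1.99 ± 0.11 (adjusted p = 0.000119), while Dntt, the terminal transferase, rose by 0.36 ± 0.05 (adjusted p = 0.00156).

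Of 9 markers of plasmacytoid dendritic cells, 2 were called higher under GSI and 1 lower. Over all genes, 10.8% were called higher and 12.5% lower, and the marker counts here stand against these shares. Spib, a transcription factor, rose by 1.91 ± 0.16 (adjusted p = 0.000288) and Irf8, another one, by 0.57 ± 0.12 (adjusted p = 0.0119), while Klk1 fell by 0.73 ± 0.16 (adjusted p = 0.0128). Siglech, the surface receptor that defines these cells, lay between 4.11 and 4.56 on all arrays, and the erythroid means lay between 4.47 and 4.75. Myeloid means were 5.52 to 5.54 in IkL/L GSI, against 4.81 to 4.86 in IkL/L DMSO, and 5.06 to 5.23 in WT GSI, against 4.64 to 4.90 in WT DMSO. Of the 15 markers, 5 were called higher under GSI and 0 lower. The myeloid medians moved less, at 4.93 on both IkL/L GSI arrays, against 4.45 and 4.545 under DMSO. In WT cells they were 4.73 and 4.56 under GSI, against 4.77 and 4.46 under DMSO. B cell marker means were 5.58 to 5.70 in IkL/L GSI, against 5.11 to 5.19 in IkL/L DMSO, and 5.46 to 5.62 in WT GSI, against 5.15 to 5.25 in WT DMSO. Of 10 B cell markers, 2 were called higher under GSI and 0 lower. The part of these cells in the response of the interferon-stimulated genes was not tested.

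The GAPDH control has probe sets at both ends of its transcript, and the 3' minus 5' level, in log2, grows as RNA gets shorter. In IkL/L cells it was 3.09 and 3.03 under GSI, against 1.87 and 2.47 under DMSO. In WT cells it was 2.20 and 3.08 under GSI, against 1.71 and 2.12 under DMSO. Dtx1, a Notch target, read 7.44 and 7.04 in IkL/L GSI, against 11.74 and 11.84 in IkL/L DMSO. Its WT arrays were 7.68 and 7.97 under GSI, against 12.09 and 11.96 under DMSO. Ikzf1 itself had an average IkL/L minus WT difference of -0.66 ± 0.10 (SE; limma adjusted p = 0.00998).

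**Figure D2:**
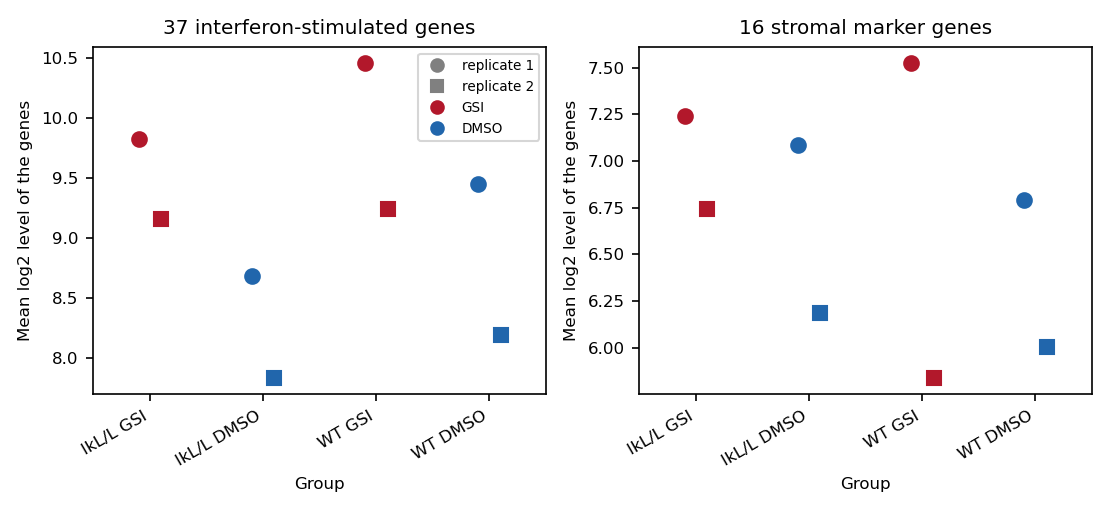
Mean log2 level of the 37 interferon-stimulated genes (left) and of 16 stromal marker genes (right) on each array, by group; circles are replicate 1, squares replicate 2, red GSI and blue DMSO. Replicate 1 lies above replicate 2 in all 4 groups in both panels, while the WT GSI replicate 2 has the lowest stromal mean.

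The first question was whether blocking gamma-secretase changed the interferon-stimulated genes. Tests used limma on all 8 arrays with Benjamini-Hochberg adjustment over 18193 genes, and differences are GSI minus DMSO in log2 with the standard error (SE), n = 2 arrays per group. Averaged over genotypes, the median difference of the members was 1.13, against -0.002 for all genes, and 36 of 37 differences were above 0. In IkL/L cells 8 members were called higher (7.7% of all genes; member median 1.26) and none lower (9.09% of all genes). In WT cells 3 were called higher (2.31% of all genes; member median 1.02) and none lower (4.16% of all genes). Both GSI arrays exceeded both DMSO arrays for 31 members in IkL/L (26.5% of all genes) and 14 in WT (24.2% of all genes), and 14 did so in both genotypes (13.7% of all genes). No member had both GSI arrays below both DMSO arrays, as 35.9% of all genes had in IkL/L, 19.8% in WT and 15.6% in both.

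The counts called, of members and of all genes, depended on single arrays. A fit without an array leaves a single array in its group. With each array left out in turn, the median member difference averaged over genotypes ran from 0.81 to 1.46. It ran from 0.82 to 1.71 in IkL/L cells and from 0.44 to 1.59 in WT cells. No member called in WT cells kept that call in every such fit. Averaged over genotypes, 13 members were called higher in the main fit. The count was 33 with a term for the replicate number, where 13.4% of all genes were called higher. It was 30 with the stromal mean of each array as a covariate, where 15.4% were. With the GAPDH difference as a covariate it was 34, where 12.3% were. In each genotype the GAPDH difference was itself higher on both GSI arrays than on both DMSO arrays. That fit thus cannot fully part it from the treatment.

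The 4 genes of the first group encode factors of the interferon signal itself, and 3 of them passed the average test. In IkL/L cells Irf1, a factor induced by interferon gamma, was at 11.60 and 11.52 under GSI, against 10.76 and 10.42 under DMSO. In WT cells it was at 11.67 and 10.95 under GSI, against 10.92 and 10.51 under DMSO. The groups did not overlap in either genotype, and the average difference was 0.78 ± 0.18 (adjusted p = 0.0157). Without single arrays the Irf1 difference ran from 0.598 to 0.961, and its call was not always kept. Stat2, a subunit of the complex that binds the ISRE, read 7.05 and 6.59 in IkL/L GSI, against 5.95 and 6.36 in IkL/L DMSO. Its WT arrays stood at 6.92 and 7.23 under GSI, against 6.06 and 6.38 under DMSO. Both GSI arrays of each genotype were above its DMSO arrays, and the gene rose by 0.76 ± 0.17 (adjusted p = 0.0139). With the GAPDH difference as a covariate it differed by 0.34 and did not pass. Without single arrays the Stat2 difference ran from 0.644 to 0.872, and its call was not always kept.

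Irf9, the DNA-binding subunit of that complex, was at 9.91 and 8.84 in IkL/L GSI, against 8.34 and 7.19 in IkL/L DMSO, and at 10.08 and 9.25 in WT GSI, against 9.20 and 8.07 in WT DMSO. The arrays did not overlap, with little room between the groups, and it rose by 1.32 ± 0.39 (adjusted p = 0.041). That call was lost when eBayes had no trend and without some single arrays. Irf7, the factor that amplifies interferon alpha production, differed by 1.23 ± 0.60 and did not pass (adjusted p = 0.197). Its WT arrays were 10.92 and 8.52 under GSI, against 9.40 and 7.46 under DMSO, and overlapped.

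Among the 5 sensors of nucleic acid, Ddx58 (RIG-I) and Ifih1 (MDA5), which detect viral RNA in the cytosol, passed. Ddx58 stood at 9.47 and 9.33 in IkL/L GSI, against 8.35 and 7.90 in IkL/L DMSO, while WT cells had 10.23 and 9.38 under GSI, against 9.27 and 8.35 under DMSO. Its average difference was 1.13 ± 0.26 (adjusted p = 0.0151). Ifih1 read 11.90 and 11.45 in IkL/L GSI, against 10.73 and 9.97 in IkL/L DMSO, while WT cells had 12.00 and 11.22 under GSI, against 11.09 and 10.15 under DMSO. It rose by 1.16 ± 0.28 (adjusted p = 0.0184), and neither gene had overlapping arrays in either genotype. Without single arrays Ddx58 ran from 0.905 to 1.363 and Ifih1 from 0.922 to 1.393, and neither call was always kept. Dhx58 (LGP2), a relative of RIG-I, had 1.35 ± 0.56 (adjusted p = 0.129). Zbp1, a sensor of Z-form nucleic acid, had 1.00 ± 0.33 (adjusted p = 0.061). Eif2ak2 (PKR), the kinase that halts translation on double-stranded RNA, differed by 0.22 ± 0.40, and its 4 groups overlapped.

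None of the 3 IFIT genes and none of the 4 genes of the oligoadenylate synthetase family passed, though several had large differences with wide errors. Ifit1, which binds the ends of foreign RNA, read 10.56 and 9.43 in IkL/L GSI, against 8.67 and 7.04 in IkL/L DMSO. In WT cells it read 11.67 and 9.84 under GSI, against 9.90 and 6.86 under DMSO. The WT groups overlapped, and the difference was 2.25 ± 0.72 (adjusted p = 0.057). Ifit3, a partner of Ifit1, read 10.70 and 6.90 in WT GSI, the widest gap of any member, against 8.34 and 5.39 in WT DMSO, and differed on average by 1.49 ± 0.92. Ifit2, of the same family, differed by -0.08 ± 0.38. Its GSI replicates were 9.58 and 8.25 in IkL/L, against 9.50 and 9.22 under DMSO, and the groups overlapped.

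Oasl2, an oligoadenylate synthetase-like protein, had the largest difference of the members, 2.43 ± 0.75 (adjusted p = 0.0507). It was at 10.86 and 9.77 in IkL/L GSI, against 8.37 and 6.78 in IkL/L DMSO, where the groups stood apart. Its WT arrays were 11.62 and 9.57 under GSI, against 10.06 and 6.88 under DMSO, and overlapped. Oas2, Oas3 and Oasl1, of the same family, differed by 0.88 to 1.09.

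Of 6 other antiviral effectors, Rsad2 (viperin), which makes a chain-terminating nucleotide, and Isg20, an RNA exonuclease, passed. Rsad2 stood at 11.17 and 10.32 in IkL/L GSI, against 9.41 and 8.08 in IkL/L DMSO, while WT cells had 12.55 and 10.89 under GSI, against 10.84 and 8.56 under DMSO. Neither genotype had overlapping arrays, though the lower WT GSI array lay close above the higher WT DMSO array, and the difference was 2.01 ± 0.58 (adjusted p = 0.0374). The call was lost with the mean over its probe sets (1.68), when eBayes had no trend, and without some single arrays. Isg20 read 10.07 and 9.59 in IkL/L GSI, against 8.69 and 8.12 in IkL/L DMSO, while WT cells had 11.52 and 10.18 under GSI, against 10.02 and 8.31 under DMSO. It rose by 1.56 ± 0.42 (adjusted p = 0.0293), with no overlap, and its call was also lost without some single arrays. Mx1 (1.09 ± 0.47) and Mx2 (0.50 ± 0.32), dynamin-like GTPases, Cmpk2 (1.44 ± 0.59), a mitochondrial nucleotide kinase, and Bst2 (1.21 ± 0.42), which tethers budding virus, did not pass.

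Of 6 measured ubiquitin ligases, ADP-ribosyl transferases and enzymes of the Isg15 system, 4 passed. Trim30a, a ligase that dampens Toll-like receptor signals, read 11.80 and 11.39 in IkL/L GSI, against 9.69 and 9.33 in IkL/L DMSO, while WT cells had 11.78 and 11.57 under GSI, against 10.86 and 10.10 under DMSO. It rose by 1.64 ± 0.19 (adjusted p = 0.000801). Dtx3l, the partner ligase of Parp9, stood at 11.62 and 11.48 in IkL/L GSI, against 10.18 and 10.16 in IkL/L DMSO, while WT cells had 11.72 and 11.39 under GSI, against 10.96 and 10.54 under DMSO. It rose by 1.09 ± 0.13 (adjusted p = 0.00083). Trim25, a ligase that acts on RIG-I, was at 13.01 and 13.27 in IkL/L GSI, against 12.24 and 11.96 in IkL/L DMSO, while WT cells had 13.21 and 12.87 under GSI, against 12.44 and 12.24 under DMSO. It rose by 0.87 ± 0.11 (adjusted p = 0.00123), and the mean replicate gaps of Dtx3l (0.23) and Trim25 (0.27) were the smallest of the 37. With the mean over its probe sets, Trim25 differed by 0.40 and did not pass (adjusted p = 0.178).

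Trim30a, Dtx3l and Trim25 were the 3 members called in each genotype alone. Parp14, a transferase of ADP-ribose, read 11.30 and 10.99 in IkL/L GSI, against 9.78 and 9.19 in IkL/L DMSO, while WT cells had 10.74 and 10.12 under GSI, against 9.74 and 9.14 under DMSO. The groups did not overlap, and it rose on average by 1.32 ± 0.22 (adjusted p = 0.00333). Parp9 (0.58 ± 0.35) and Usp18 (1.23 ± 0.59), the protease that removes Isg15, did not pass.

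Of 5 interferon-inducible GTPases, proteins that attack the vacuoles of pathogens, 2 passed. Gbp2, a guanylate-binding protein, stood at 11.70 and 11.22 in IkL/L GSI, against 9.77 and 8.69 in IkL/L DMSO, while WT cells had 11.51 and 11.03 under GSI, against 10.06 and 9.32 under DMSO. Its difference was 1.91 ± 0.28 (adjusted p = 0.00199), with no overlap in either genotype. Gbp3 read 11.50 and 10.89 in IkL/L GSI, against 9.74 and 9.51 in IkL/L DMSO, but 10.35 and 9.52 in WT GSI, against 9.60 and 9.20 in WT DMSO, where the groups overlapped. It rose on average by 1.05 ± 0.22 (adjusted p = 0.0108). The guanylate-binding proteins are close relatives, and probes of one may also bind transcripts of another. Of the immunity-related GTPases Ifi47 (0.58 ± 0.21), Igtp (1.16 ± 0.37) and Irgm1 (0.89 ± 0.42), none passed.

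The 4 remaining members did not pass. Xaf1, which promotes cell death, differed by 1.58 ± 0.49, and Rtp4, a receptor transporter protein, by 1.55 ± 0.48. Ifi35 differed by 0.66 ± 0.25 and the chemokine Cxcl10 by 0.09 ± 0.21.

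**Figure D3:**
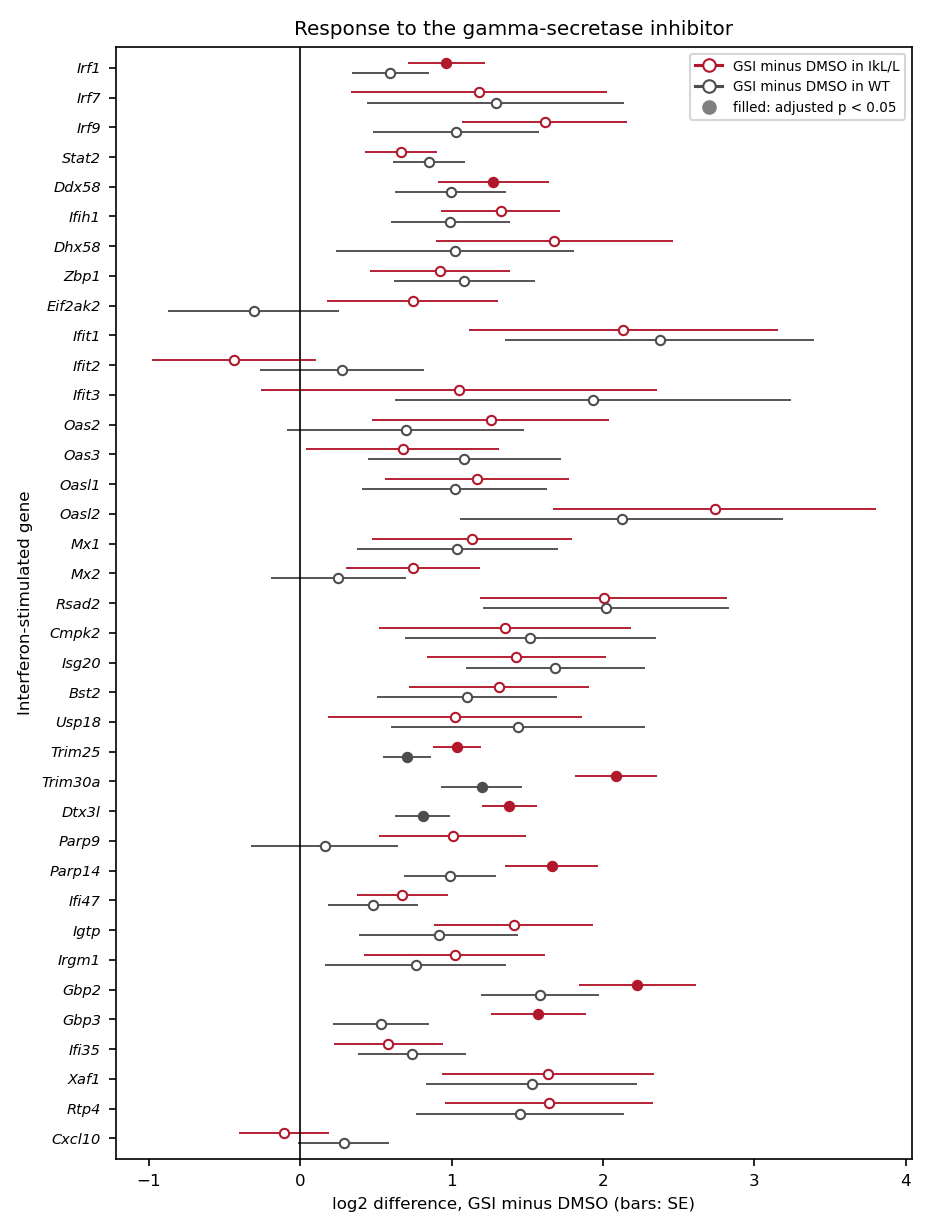
The log2 difference GSI minus DMSO of each of the 37 genes in IkL/L (red) and WT (grey) cells, with bars of 1 SE; filled points have an adjusted p below 0.05. 8 filled points lie in IkL/L and 3 in WT, and most open points lie right of 0 with wide bars.

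Of the 13 members called on average, 6 were called in each of the 8 fits that left out an array: Trim25, Trim30a, Dtx3l, Parp14, Gbp2 and Gbp3. The mean gap between replicates, over the 4 groups, ran from 0.23 to 1.53 for the 13 called members (median 0.53) and from 0.50 to 2.40 for the 24 others (median 1.13). The median difference was 1.16 for the called and 1.09 for the other members, and the standard errors ran from 0.11 to 0.58 and from 0.21 to 0.92. The standard error is computed in part from these gaps, so wider gaps in the members not called are largely built into the test.

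**Figure D4:**
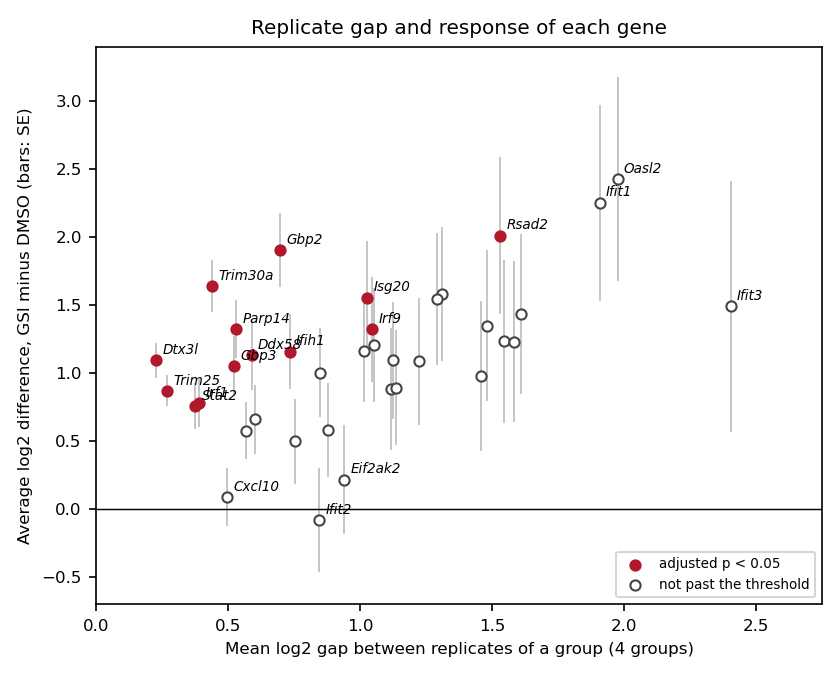
The average log2 difference GSI minus DMSO (vertical, bars of 1 SE) against the mean log2 gap between the replicates of a group (horizontal) for each of the 37 genes. Filled points, called at an adjusted p below 0.05, have mean gaps of 0.23 to 1.53, and Ifit3 has the widest, 2.40. The SE, and so the call, rests in part on these gaps.

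The difference of the responses between genotypes, IkL/L minus WT, was called for no member in limma (0.0275% of all genes higher, 0.0165% lower). The smallest adjusted p was 0.83. At an unadjusted p below 0.05, 2 members were higher, Trim30a and Gbp3, and none lower, against 2.89% and 3.1% of all genes. The response of Trim30a differed by 0.89 ± 0.38 and that of Gbp3 by 1.04 ± 0.45. The median difference of responses was 0.21, against -0.06 for all genes. It was negative without WT DMSO replicate 1 (-0.45), WT GSI replicate 2 (-0.29), IkL/L DMSO replicate 2 (-0.18) or IkL/L GSI replicate 1 (-0.06).

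The second question was whether the members differed with the Ikaros genotype. No member was called by limma under DMSO (0.709% of all genes higher, 1.03% lower), where the median IkL/L minus WT difference was -0.64, against 0.03 for all genes, and 34 of 37 differences were below 0. The arrays did not overlap for 5 members that were lower (17.4% of all genes) and 1, Cxcl10, that was higher (22.4% of all genes). Trim30a, at 9.69 and 9.33 in IkL/L DMSO against 10.86 and 10.10 in WT DMSO, had a difference of -0.97 ± 0.27 (adjusted p = 0.176). It and Dtx3l were lower at an unadjusted p below 0.05 (5.47% of all genes), and no member was higher (4.72%).

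Under GSI no member was called by limma either (0.945% of all genes higher, 0.517% lower), with a median of -0.40 against -0.04 for all genes. The arrays did not overlap for 4 members that were lower (23.1% of all genes) and 2, Gbp3 and Parp14, that were higher (14.0%). These 2 also had an unadjusted p below 0.05 (5.06% of all genes), and no member was lower by that measure (5.64%). Gbp3, at 11.50 and 10.89 in IkL/L GSI against 10.35 and 9.52 in WT GSI, had a difference of 1.26 ± 0.32 (adjusted p = 0.14).

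Averaged over treatments none was called in limma (1.97% of all genes higher, 1.83% lower; median -0.53). At an unadjusted p below 0.05 Gbp3 was higher (6.59% of all genes) and Zbp1, Oasl1 and Trim30a were lower (6.89%). Only Zbp1 had IkL/L arrays below the WT arrays of both treatments (6.19% of all genes), and no member had them above (6.39%). Zbp1 read 7.02 and 6.46 in IkL/L GSI, against 8.33 and 7.19 in WT GSI, and 6.15 and 5.48 in IkL/L DMSO, against 7.19 and 6.17 in WT DMSO. Without WT DMSO replicate 1 the median under DMSO was 0.09, and without WT GSI replicate 1 that under GSI was 0.23. With a term for the replicate number 9 members were called lower on average (2.83% of all genes) and 1 higher (2.78%). With the stromal mean as a covariate 20 members were called lower on average (5.12% of all genes) and 1 higher (4.03%). With the GAPDH difference as a covariate 2 were called higher (5.56% of all genes) and none lower (3.58%), with a median of 0.02.

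**Figure D5:**
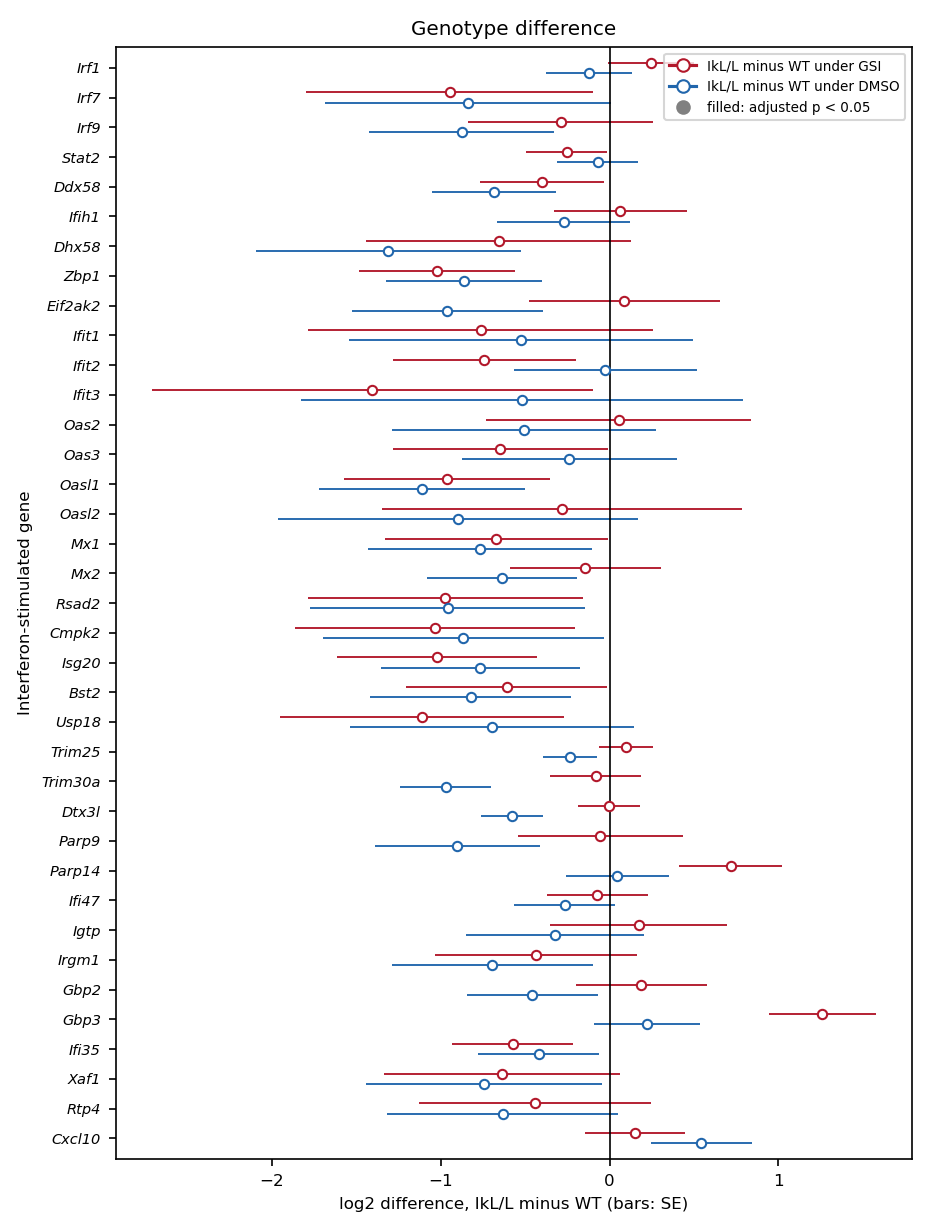
The log2 difference IkL/L minus WT of each of the 37 genes under GSI (red) and DMSO (blue), with bars of 1 SE. No point is filled, since none had an adjusted p below 0.05, and 34 of the 37 DMSO points lie left of 0.

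Genes upstream of the members were followed through lists chosen by role, also with earlier results known. Their counts stand against 10.8% of all genes called higher and 12.5% called lower with GSI. Of 10 interferon genes measured none was called with GSI in limma, and 2 had an unadjusted p below 0.05. Ifnz, an interferon zeta gene, differed by 0.64 ± 0.25 (adjusted p = 0.116), and Ifnb1, interferon beta, lay between 3.90 and 4.29 on all 8 arrays. Ifng, interferon gamma, named after its values were seen, lay between 3.15 and 3.31 on the IkL/L arrays. On the WT arrays it read 5.26 and 2.96 under GSI, against 4.40 and 3.17 under DMSO, so the WT replicate 1 arrays stood apart.

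Of 22 receptors and signalling genes 10 were called higher and none lower. Ifnar1, a chain of the type I receptor, rose by 1.32 ± 0.15 (adjusted p = 0.000677), and Ifngr1, a chain of the interferon gamma receptor, by 1.08 ± 0.20 (adjusted p = 0.00609). Il10rb, a chain shared with the interferon lambda receptor, rose by 1.27 ± 0.17, and Socs3, an inhibitor of cytokine signals, by 1.31 ± 0.28.

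Of 20 sensors and adaptors 3 were higher and 4 lower. Unc93b1, which carries Toll-like receptors to endosomes, rose by 1.43 ± 0.19 and Sting1, the adaptor of DNA sensing, by 0.85 ± 0.15. Cgas, the DNA sensor that feeds Sting1, fell by 0.99 ± 0.18 (adjusted p = 0.00547), and Rnaseh2b, a subunit of the enzyme that removes RNA from DNA, fell by 1.04 ± 0.11. Of 15 genes of class I antigen presentation 6 were higher and 1 lower, with Nlrc5, the regulator of class I genes, at 1.83 ± 0.42 and the peptide transporter Tap1 at 1.23 ± 0.16. Of 19 targets of NF-kB 10 were higher and none lower, such as Ltb, the lymphotoxin beta gene (2.13 ± 0.22). Of 70 other interferon-stimulated genes 32 were higher and 4 lower (median 0.72), with Iigp1, a GTPase, at 2.44 ± 0.65 and Gbp6 at 1.81 ± 0.14, and Slfn3 falling by 1.94 ± 0.23.

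The genotype comparison of those 70 genes, averaged over treatments, called 8 lower and none higher, where 1.83% of all genes were lower and 1.97% higher. Gbp6 differed by -1.19 ± 0.14 (adjusted p = 0.00294). It read 12.78 and 12.56 in IkL/L GSI, against 13.07 and 13.02 in WT GSI, and 10.37 and 9.72 in IkL/L DMSO, against 12.06 and 12.03 in WT DMSO. Ms4a6b, a membrane protein named after its values were seen, differed by -1.60 ± 0.12 (adjusted p = 0.000307).

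By correlation over the 8 arrays with the mean of the members, the gene outside the list most like them was Slfn2, of the Schlafen family (Pearson r = 0.98), followed by Pja1 (0.97), Mical2 (0.97), Ifi27 (0.97), 1810019N24Rik (0.97), Phf11d (0.96), 4933412E12Rik (0.96), Ifit1bl1 (0.96), Rnf213 (0.96) and Lgals3 (0.96). These arrays share groups and replicate gaps, so the values describe a shared pattern. They do not describe its size. Mical2 (4.19 to 4.92) and 1810019N24Rik (4.35 to 5.27) lay below the median of all genes on every array. Pja1 moved only between 7.55 and 8.00. Slfn2 read 11.10 and 10.65 in IkL/L GSI, against 10.01 and 9.06 in IkL/L DMSO. Its WT arrays were 12.10 and 10.79 under GSI, against 10.55 and 9.04 under DMSO. Among the members, the correlation with the mean of the others was highest for Rsad2 (0.99) and lowest for Cxcl10 (0.38), Ifit2 (0.45) and Stat2 (0.51).

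A gene can be read by several probe sets. More than 1 probe set was present for 15 members, with 21 probe sets beside those used, of which 18 had a positive average GSI difference and 3 a negative one. The second Rsad2 probe set gave 2.13 and the third 0.90. For Trim25 the second probe set (mean level 11.96) gave 0.78 and the third (7.09) gave -0.45. The one used (12.66) gave 0.87. The dimmest Trim25 probe set thus went against the others in sign, and the average call is that of the brightest one.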

How the data were processed

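Sorted DN3 thymocytes were profiled on 8 arrays in 4 groups of 2, taken from the sample titles. The authors deposited log2 values per probe set, computed with RMA per the submitters' processing notes; RMA corrects background, quantile-normalises and summarises probes. Its version and any filter are not given in the sources used here, and quantile normalisation can hide shifts shared by all genes. The 45101 probe sets included 64 controls, 932 with more than 1 gene and 9160 without a listed gene, all left out. A single probe set per gene, the brightest on average, gave 18193 genes. The model was fitted in R 4.3.3 by limma 3.58.1 (lmFit, 4 group terms, contrasts, eBayes with a trend; 4 residual and 4.11 prior degrees of freedom), two-sided, adjusted by Benjamini-Hochberg over all genes and called below 0.05. The fit was tested on simulated data. Precision is limited by having 2 arrays a group.

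The members and all gene lists were chosen with earlier results of these data known. All members are named. From each other pathway list up to 4 called genes with the largest average GSI difference were named, or 2 as not passing, with the 10 genes most like the members. Alternatives were a replicate block, a mean over probe sets, genes above the median level, renewed quantile normalisation, centring, a fit restricted to the arrays compared, eBayes with no trend, the stromal or GAPDH values as covariates, and leaving out each array. A fit without both WT arrays numbered 1 was chosen after seeing the data. Python 3.11.15 with numpy 2.4.6 and pandas 2.3.3 made the tables, and matplotlib 3.10.9 the plots.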

Additional observations from a re-analysis of the deposited data

How the results depend on the processing

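The median GSI difference of the members stayed above 0 under every alternative run, while the counts called moved. Averaged over genotypes 13 were called; the count was 30 with the stromal covariate, 34 with the GAPDH covariate, 25 without both WT arrays numbered 1 (chosen after seeing the data), and 6 to 29 when single arrays were left out. In IkL/L cells 8 were called; the count was 21 with only the arrays compared, 25 with the stromal covariate (12.9% of all genes), 34 with the GAPDH covariate (10.8%), 21 without both WT arrays numbered 1 and 3 to 9 without single arrays. In WT cells 3 were called; the count was 1 with the mean over probe sets, 0 with only the arrays compared, 17 with the stromal covariate (7.1% of all genes), 32 with the GAPDH covariate (7.59%) and 0 to 2 without single arrays. For IkL/L minus WT none was called. With the stromal covariate the count was 12 under DMSO, all lower (2.95% of all genes), and 9 under GSI, 8 of them lower (2.31%). On average it was 21, 20 of them lower (5.12%). With the GAPDH covariate it was 3 under GSI (3.08% of all genes higher) and 2 on average (5.56%), all higher. Without single arrays, the member median ran from -1.35 to 0.09 under DMSO and from -0.875 to 0.235 under GSI. Averaged over treatments it ran from -0.795 to -0.19. For GSI minus DMSO, the shares of all genes called higher moved with the setting as well. In IkL/L cells the share was 7.7% in the main fit and 11.8% with only the arrays compared. In WT cells it was 2.31% in the main fit, 1.34% with the mean over probe sets and 0% with only the arrays compared. Leaving out single arrays also moved these shares. The member counts alone thus do not show a change particular to the members. The cause of these shifts was not tested.

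Whether equal replicate numbers pair the samples is not stated. Over all genes, the replicate 1 minus replicate 2 differences correlated at 0.71 between WT DMSO and WT GSI. IkL/L DMSO correlated with them at 0.58 and 0.56. IkL/L GSI correlated with WT DMSO, WT GSI and IkL/L DMSO at -0.11, 0.025 and -0.01. Over the 37 members alone the correlations were 0.52 to 0.75. As no label says what the numbers share, they were not taken as pairs. The main fit thus leaves out a replicate-number pattern. Over all genes the WT and IkL/L DMSO groups shared it, and over the members all 4 groups did. With the replicate block 33 members were called higher on average (13.4% of all genes), 29 in IkL/L (10.4%) and 28 in WT cells (4.34%). For IkL/L minus WT 3 were called under DMSO, all lower (1.79% of all genes lower), 2 under GSI, 1 of them higher (1.57% higher, 1.02% lower), and 10 on average, 9 of them lower (2.83% lower, 2.78% higher).

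The median level on IkL/L GSI replicate 2 was 8.79 with the mean over probe sets, against 9.37. Average GSI differences that changed sign belonged to members near 0. Eif2ak2 was at -0.057 with the stromal covariate and between -0.22 and 0.65 without single arrays. Ifit2 was at 0.87 with the GAPDH covariate and between -0.47 and 0.31 without single arrays. Cxcl10 was at -0.065 with the stromal covariate, at -0.038 without both WT arrays numbered 1 and between -0.12 and 0.30 without single arrays.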
